A study of Rattus norvegicus with 8 samples.

Results

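Maternal calorie restriction was compared with normal feeding in leptin-treated offspring, across all named genes of the hypothalamus. The comparison set the 2 arrays labelled CR-l against the 2 labelled Con-l, which are 4 of the 8 arrays of the study. All RNA came from the hypothalamus of female Sprague-Dawley rats at 21 days of age. Con-l offspring had normally fed mothers, and CR-l offspring had mothers whose calories were cut by 50% from gestation day 11 to 21 and again after birth. Both groups were given leptin from postnatal day 2 to 8. The other 4 arrays, Con-s and CR-s, are the same diets with saline in place of leptin. Some labels are worded so that the mothers, not the pups, could have received the treatment. The labels do not say whether an RNA sample pools animals or litters, and a design note writes Con-r where the sample titles have Con-l. Each group has a replicate A and a replicate B, so the p-values measure only the spread between these samples, which may be technical.

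Leptin is the hormone by which fat tissue reports energy stores to the brain. In the arcuate nucleus it restrains neurons that make the appetite-raising peptides Npy and Agrp and activates neurons that make Pomc, the precursor of an appetite-lowering melanocortin. In newborn rodents it also promotes the outgrowth of arcuate nerve fibres, and the weeks before weaning are when myelin, the fatty sheath that oligodendrocytes wrap around axons, forms in the hypothalamus.

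Levels are log2 intensities per probe set, the set of probes that reports a gene, and a difference is the CR-l mean minus the Con-l mean on the log2 scale, with its standard error (SE). A gene passed the test at a Benjamini-Hochberg adjusted p under 0.05 (limma) over all 14506 named genes. Median array intensities ranged from 111.8 to 114.1, no probe set was at 0, and replicates within a group had correlations of 0.9947 to 0.9955 across probe sets. As a check of the tissue, the hypothalamic peptide genes Oxt, Pmch, Avp, Hcrt and Agrp had log2 levels of 11.04 to 11.29, 11.10 to 11.21, 9.75 to 10.16, 9.21 to 9.47 and 7.37 to 8.33 on the 4 leptin arrays. Pomc, at 6.21 to 6.43, lay below the median probe set of each of those arrays (6.805 to 6.817). One array, Con-l replicate A, stood apart in some markers of neighbouring tissues. The pituitary hormone subunit Cga was at 9.19 on Con-l replicate A and at 6.19, 6.01 and 5.86 on the other leptin arrays. The summed intensity of 9 pituitary genes, Cga included, was 1049 on Con-l replicate A against 482.3 to 519.7. The median of these 9 genes on that array was only 0.02 above their Con-l mean, so the list as a whole did not stand apart. Some striatal markers were also highest on Con-l replicate A. Ppp1r1b was at 8.56 against 7.80, 7.55 and 7.61, and Adora2a at 7.44 against 6.83, 6.69 and 6.75. The summed intensity of 10 striatal genes was 3776 against 3001 to 3177. Other striatal markers were not highest there: Arpp21 was at 8.79 against 8.79, 9.20 and 9.03, and Rasgrp2 at 7.68 against 7.67, 7.81 and 7.79. The cortical and hippocampal marker Slc17a7 also varied within both groups, at 8.24 and 9.06 in Con-l and 9.25 and 8.40 in CR-l. The number of arrays limits the precision of every value below.

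In leptin-treated offspring 1 gene rose and 2 fell with restriction beyond the spread between arrays. Rbm3, an RNA-binding protein induced by mild cooling, rose 3.19-fold in CR-l. Serpinh1, the collagen chaperone of the endoplasmic reticulum, fell 1.75-fold, and Enpp2, the secreted enzyme autotaxin that oligodendrocytes make in quantity, fell 1.87-fold. These 3 genes are 0.0207% of the 14506 tested, and the other genes named below did not pass. At an adjusted p under 0.1, a threshold added after the data had been seen, there were 135 genes, 45 higher and 90 lower, and 2059 had an unadjusted p under 0.05, where chance alone would give about 725. The median difference over all genes was 0.00 and the median absolute difference 0.08.

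Rbm3 had log2 levels of 8.95 and 8.80 on the Con-l arrays and 10.37 and 10.73 on the CR-l arrays. The difference was 1.67 (SE 0.14, adjusted p = 0.0339), and every CR-l array lay more than a log2 unit above every Con-l array. Serpinh1 was at 9.20 and 9.22 in Con-l and at 8.35 and 8.46 in CR-l, a difference of -0.81 (SE 0.06, adjusted p = 0.0339). Enpp2 was at 11.38 and 11.52 in Con-l and at 10.59 and 10.51 in CR-l, a difference of -0.90 (SE 0.08, adjusted p = 0.0339). In each of the 3 genes both CR-l arrays were on the same side of both Con-l arrays. Leaving out any 1 of the 8 arrays ended the calls of Serpinh1 and Enpp2, with adjusted p of 0.0607 to 0.195. The Rbm3 call held only without CR-l replicate A (adjusted p = 0.0403) and otherwise had an adjusted p of 0.0607 to 0.149. Without Con-l replicate A, the array with high Cga, the adjusted p was 0.148 for all 3 genes. With the 4 leptin arrays fitted alone the adjusted p of all 3 genes was 0.123, and with all 29215 probe sets tested together it was 0.176.

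**Figure D1:**
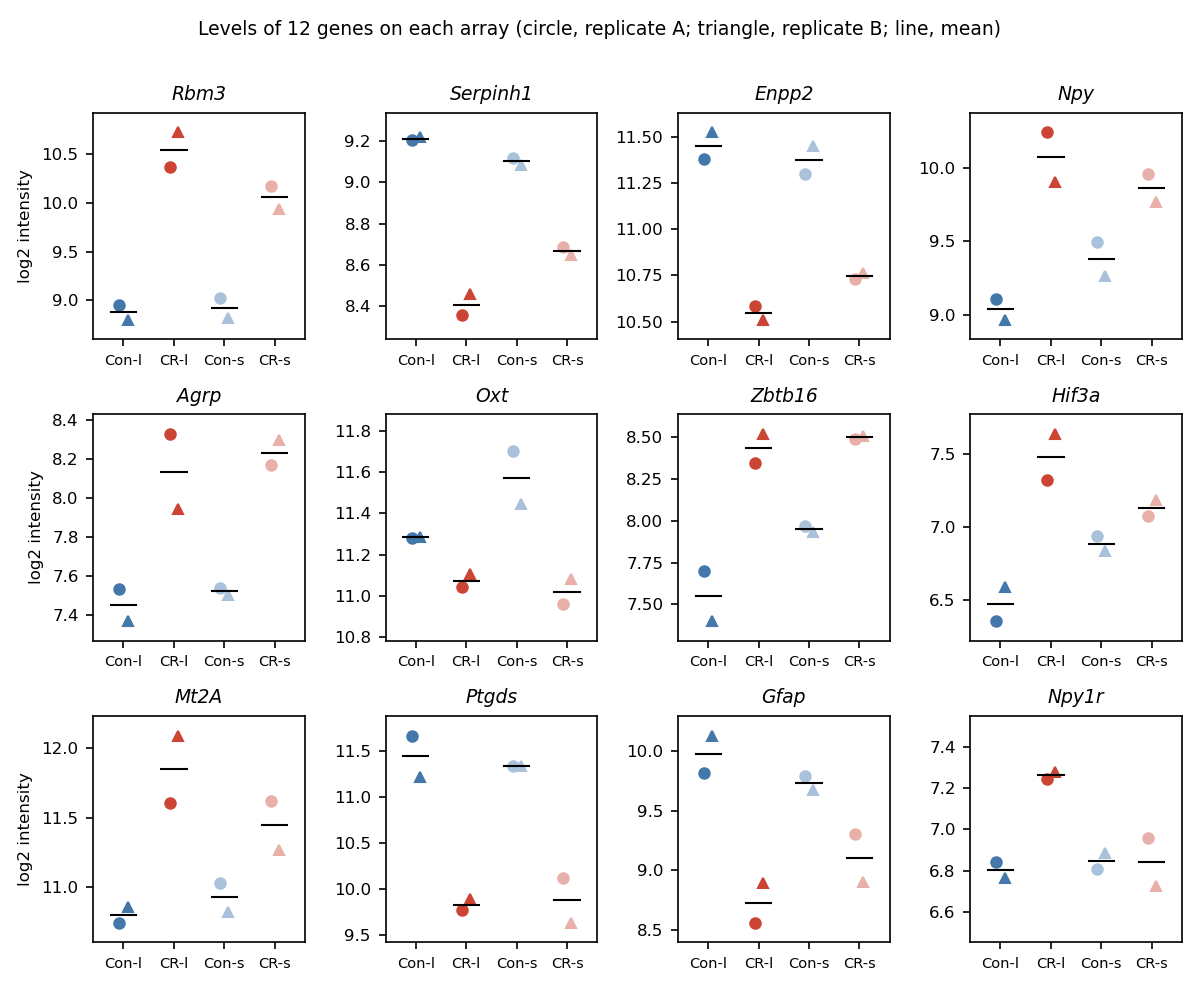
Log2 intensity (vertical axis) of 12 genes on each of the 8 arrays, by group, with replicate A as a circle, replicate B as a triangle and the group mean as a line. Rbm3 lies at 8.80 to 8.95 in Con-l and 10.37 to 10.73 in CR-l, and the 2 CR-l arrays lie on 1 side of the 2 Con-l arrays in all 12 genes shown, which were picked for their values.

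The appetite-raising peptides of the arcuate nucleus were higher in CR-l without passing. Npy was at 9.11 and 8.97 in Con-l and at 10.24 and 9.90 in CR-l. That is a difference of 1.03 (SE 0.13, 95% interval 0.71 to 1.35), 2.04-fold, with an adjusted p of 0.0605 that just missed the threshold. The adjusted p was 0.00713 to 0.0489 in the 4 settings under which it passed, with quantile normalization (0.0476) and cyclic loess (0.0489) among them. It was 0.182 with all probe sets tested together, 0.183 with the 4 leptin arrays alone and 0.0907 to 0.206 with 1 array left out. Agrp, the antagonist of melanocortin receptors made by the same neurons, was at 7.53 and 7.37 in Con-l and at 8.33 and 7.94 in CR-l, a difference of 0.68 (SE 0.13, adjusted p = 0.0983). Its adjusted p was 0.0295 among the upper 60% of genes by mean and 0.0109 with trend and robust settings, and 0.0917 to 0.297 in the other settings run. For both peptides the CR-l arrays lay above the Con-l arrays. Of the 11 appetite-raising peptide genes measured, 6 were higher and 5 lower, 3 of them higher at an unadjusted p under 0.05 (background 6.92% of all genes higher, 7.27% lower). The third was Npb, neuropeptide B, with 0.23 (SE 0.08). Pmch and Hcrt, the lateral hypothalamic genes of melanin-concentrating hormone and orexin, differed by -0.00 (95% interval -0.25 to 0.24) and 0.05 (95% interval -0.26 to 0.35).

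Among the appetite-lowering genes some were lower and some higher in CR-l, and none passed. Pomc was at 6.43 and 6.31 in Con-l and at 6.22 and 6.21 in CR-l, a difference of -0.16 (SE 0.07, adjusted p = 0.404). Cartpt, the gene of the CART peptide, differed by -0.20 (SE 0.08, adjusted p = 0.347), and Oxt, the gene of oxytocin, by -0.21 (SE 0.09, adjusted p = 0.372). Without Con-l replicate A, the array with high Cga, the difference was -0.09 for Pomc and -0.12 for Cartpt. In all 3 genes the CR-l arrays lay below the Con-l arrays, which was so for 22.9% of all genes, while 23.5% had both CR-l arrays above. Adcyap1, the gene of the neuropeptide PACAP, was at 9.24 and 9.12 in Con-l and at 9.54 and 9.63 in CR-l, a difference of 0.41 (SE 0.07, adjusted p = 0.0983). Nucb2, the precursor of nesfatin, differed by 0.33 (SE 0.09, adjusted p = 0.199). Crh, Trh, Bdnf and Avp, which encode corticotropin-releasing hormone, thyrotropin-releasing hormone, a neurotrophin and vasopressin, differed by -0.02 (SE 0.07), 0.16 (SE 0.16), 0.00 (SE 0.06) and 0.15 (SE 0.12). The difference of Trh was 0.03 without CR-l replicate A, 0.06 without Con-l replicate B, 0.25 without Con-l replicate A and 0.28 without CR-l replicate B. Over the 15 appetite-lowering genes measured the median difference was 0.02, with 9 higher and 6 lower. It was -0.05 without Con-l replicate A, -0.03 without CR-l replicate A, -0.01 without CR-l replicate B and 0.01 without Con-l replicate B.

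Receptors of the energy-balance circuit were mostly higher in CR-l. Of 16 measured, 14 were higher and 2 lower, 8 were higher at an unadjusted p under 0.05 (background 6.92%), and none passed. Their median difference was 0.20 against 0.00 over all genes, and 0.16 to 0.26 when 1 leptin array was left out. Npy1r, a receptor for Npy, was at 6.84 and 6.76 in Con-l and at 7.25 and 7.28 in CR-l, a difference of 0.46 (SE 0.09, adjusted p = 0.102). Calcr, the calcitonin receptor through which amylin also acts, differed by 0.51 (SE 0.18, adjusted p = 0.263). The other 3 members with the smallest p were the orexin receptor Hcrtr1 with 0.33 (SE 0.10), the serotonin receptor Htr2c with 0.26 (SE 0.07) and the vasopressin receptor Avpr1a with 0.23 (SE 0.07). For Mc3r, a receptor of the melanocortin family, the difference was 0.42 (SE 0.14, adjusted p = 0.255), and Mc4r, the family member whose loss causes obesity, differed by 0.14 (SE 0.19, adjusted p = 0.809). Without Con-l replicate B the difference of Mc3r was 0.25, and without Con-l replicate A it was 0.60. Con-l replicate A had Mc4r at 7.58, above both CR-l arrays (7.48 and 7.44), and Con-l replicate B had it at 7.07. Over 12 genes of neurons in general the median difference was 0.06, and their summed intensity was 38820 and 38680 in Con-l and 40960 and 40220 in CR-l.

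No gene of leptin signalling downstream of the receptor passed. Among 16 measured, 6 were higher and 10 lower, the median difference was -0.04, and 1 was lower at an unadjusted p under 0.05 (background 7.27%). The median turned to 0.02 without Con-l replicate A and was -0.06 without CR-l replicate B. The gene was Cish, a feedback inhibitor of cytokine signalling, at 6.84 and 6.64 in Con-l and at 6.46 and 6.45 in CR-l, a difference of -0.29 (SE 0.09, adjusted p = 0.227). Without Con-l replicate A it was -0.19. Stat3, the transcription factor activated by the leptin receptor, differed by -0.02 (95% interval -0.18 to 0.14). Socs3, its feedback inhibitor, differed by -0.06 (SE 0.11, 95% interval -0.31 to 0.19). The leptin receptor gene Lepr was not analysed here.

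Glucocorticoid-induced genes were nearly all higher in CR-l. These are genes whose transcription the activated glucocorticoid receptor is known to increase. This list, like the others here, was chosen with earlier results of these data known, so its counts are a description and not a test. Of 21 measured, 20 were higher and 1, Lcn2, was lower, and 17 were higher at an unadjusted p under 0.05 against a background of 6.92%. None passed over all genes, and the median difference was 0.33, with 0.24 to 0.37 when 1 leptin array was left out. Both CR-l arrays lay above both Con-l arrays in 19 of the 21. Zbtb16, a zinc finger transcription factor, was at 7.70 and 7.40 in Con-l and at 8.35 and 8.52 in CR-l, a difference of 0.88 (SE 0.11, adjusted p = 0.0605). Hif3a, a member of the hypoxia-inducible factor family, was at 6.35 and 6.59 in Con-l and at 7.32 and 7.64 in CR-l, a difference of 1.01 (SE 0.12, adjusted p = 0.0605). Fkbp5, a co-chaperone that dampens the glucocorticoid receptor, differed by 0.65 (SE 0.13, adjusted p = 0.105), and the kinase gene Sgk1 by 0.57 (SE 0.10, adjusted p = 0.0952). The list also holds the metallothionein genes, the clock gene Per1 and the astrocyte connexin gene Gjb6, which other lists hold as well.

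Metallothioneins are small proteins that bind zinc and copper, and their genes respond both to metals, through the factor Mtf1, and to glucocorticoids. Mt2A was at 10.74 and 10.86 in Con-l and at 11.61 and 12.09 in CR-l, a difference of 1.05 (SE 0.18, adjusted p = 0.0861). Mt1 was at 8.88 and 8.72 in Con-l and at 9.33 and 9.56 in CR-l, a difference of 0.64 (SE 0.11, adjusted p = 0.0902). A second probe set of each gene gave 1.09 and 0.72, though probes of these related genes may share signal. Mt3, the brain metallothionein, differed by -0.21 (SE 0.07, adjusted p = 0.232). The promoters of Mt1 and Mt2A are shown because the pair differed together and both carry repeated metal response motifs. They are the 250 bases before the gene start, 5′ to 3′ on the gene's own minus strand, from RefSeq build GRCr8, at chr19:10832976-10833225 for Mt1 and chr19:10838709-10838958 for Mt2A. Capitals mark matches to TGCACNC or TGCGCNC on either strand, 6 in Mt1 and 4 in Mt2A:
Mt1: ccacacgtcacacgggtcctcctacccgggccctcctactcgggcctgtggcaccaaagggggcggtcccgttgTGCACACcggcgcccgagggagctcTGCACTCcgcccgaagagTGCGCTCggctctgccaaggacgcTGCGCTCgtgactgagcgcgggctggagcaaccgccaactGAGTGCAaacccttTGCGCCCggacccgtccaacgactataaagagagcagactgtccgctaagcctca
Mt2A: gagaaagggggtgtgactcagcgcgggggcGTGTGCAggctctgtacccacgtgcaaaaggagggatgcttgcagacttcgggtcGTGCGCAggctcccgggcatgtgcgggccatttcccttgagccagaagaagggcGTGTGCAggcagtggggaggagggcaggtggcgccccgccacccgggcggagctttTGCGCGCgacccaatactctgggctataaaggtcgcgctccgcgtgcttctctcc
In windows that also take in the 50 bases after the start, 6 of 7 promoters of metallothionein and zinc transport genes held such a match (85.7%), as did 31.6% of 11970 promoters of measured genes. A match is a description of letters and does not show a site in use.

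**Figure D2:**
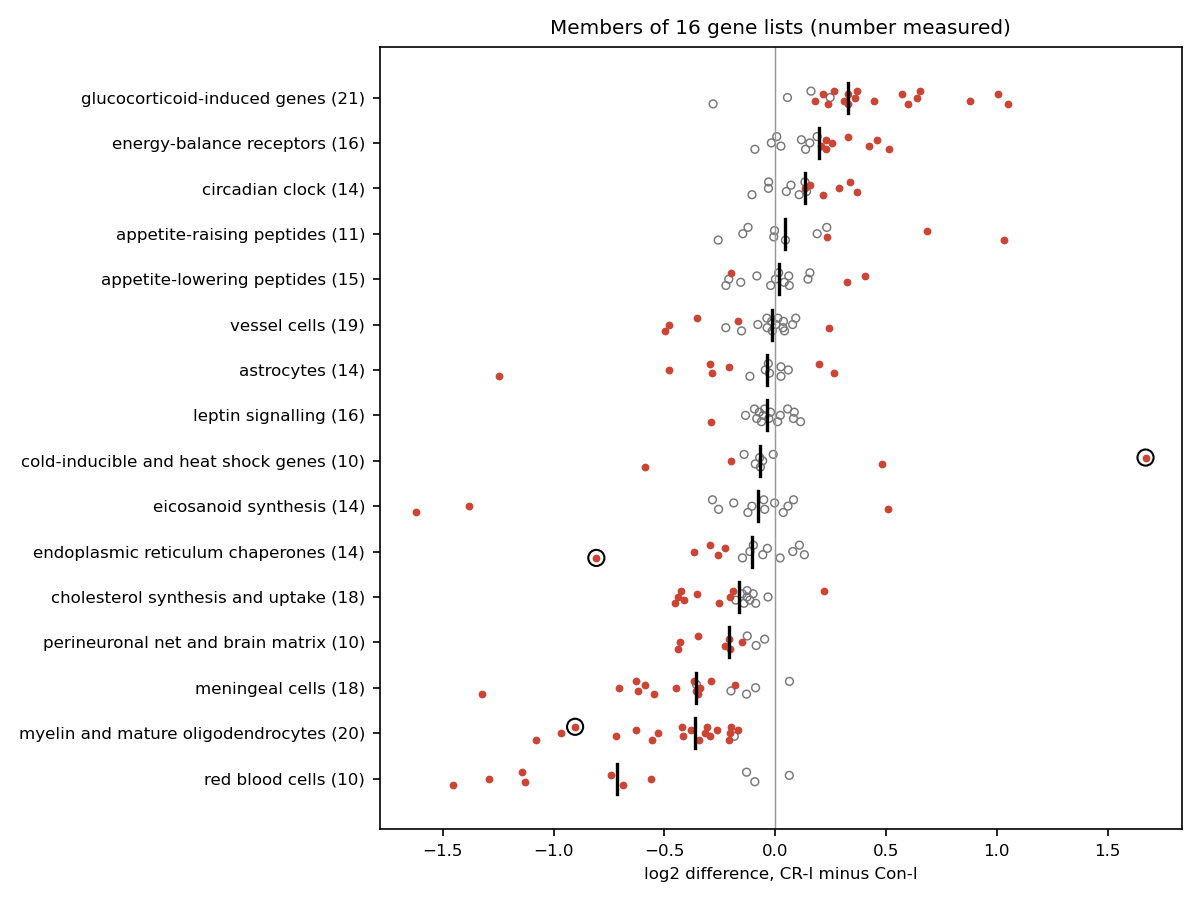
Difference CR-l minus Con-l on the log2 scale (horizontal axis) of each measured member of 16 gene lists (vertical axis, number measured in brackets). Filled points have an unadjusted p under 0.05, ringed points passed over all genes, and bars are medians, from 0.33 for glucocorticoid-induced genes to -0.71 for red blood cell genes.

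Several circadian clock genes were slightly higher. Of 14 clock genes measured, 11 were higher and 3 lower, 6 were higher at an unadjusted p under 0.05 (background 6.92%), and the median difference was 0.13. Cry2 was at 9.38 and 9.31 in Con-l and at 9.69 and 9.68 in CR-l, a difference of 0.34 (SE 0.06, adjusted p = 0.098). Per1, Per2 and Cry1 differed by 0.37 (SE 0.07), 0.29 (SE 0.08) and 0.21 (SE 0.07). Without CR-l replicate B the difference of Cry1 was 0.13. Bmal1 and Clock, the activators of the same loop, differed by -0.10 (SE 0.06) and -0.03 (SE 0.06). The labels used here give no hour of tissue collection. The clock E-box CACGTG was found in 3 of 13 clock promoters with sequence (23.1%) and in 7.88% of all promoters. The 3 were those of Tef, Bhlhe40 and Bhlhe41, none of them a clock gene named above.

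Cold-inducible genes were higher and heat shock genes lower within their list of 10. Besides Rbm3, Cirbp, its close relative induced by cooling, was at 9.13 and 9.04 in Con-l and at 9.45 and 9.68 in CR-l, a difference of 0.48 (SE 0.08, adjusted p = 0.0939). All 8 heat shock genes were lower, with 2 at an unadjusted p under 0.05 (background 7.27%): Hsph1 with -0.59 (SE 0.14) and Hsp90aa1 with -0.20 (SE 0.06). Chaperones of the endoplasmic reticulum, the list that holds Serpinh1, were lower in 10 of 14 cases with a median of -0.11. Pdia4, Calr and Pdia6, which fold secreted proteins, differed by -0.37 (SE 0.07), -0.30 (SE 0.06) and -0.23 (SE 0.06). That median was -0.04 without CR-l replicate B, -0.07 without Con-l replicate A, -0.15 without Con-l replicate B and -0.16 without CR-l replicate A.

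Myelin genes, and others of mature oligodendrocytes, were lower in CR-l throughout. All 20 measured members were lower, 19 at an unadjusted p under 0.05 against a background of 7.27%, and Enpp2 passed. In 19 of the 20 both CR-l arrays lay below both Con-l arrays, where 22.9% of all genes did. The median difference was -0.36, and -0.39 to -0.32 when 1 leptin array was left out. Summed over the list, intensities were 71850 and 73490 in Con-l and 55590 and 55400 in CR-l. Ermn, a cytoskeletal protein of the myelin sheath, was at 10.87 and 11.06 in Con-l and at 10.43 and 10.25 in CR-l, a difference of -0.63 (SE 0.09, adjusted p = 0.0613). Apod, a lipid carrier, and Ndrg1, needed to keep up myelin, differed by -0.56 (SE 0.08) and -0.72 (SE 0.11). Among structural genes, Mbp, the myelin basic protein, differed by -0.17 (SE 0.06) and Mog, a glycoprotein of the outer myelin surface, by -0.42 (SE 0.09). Klk6, a protease of mature oligodendrocytes, was at 10.10 and 10.13 in Con-l and at 8.99 and 9.07 in CR-l, a difference of -1.08 (SE 0.18, adjusted p = 0.0836). In whole tissue, fewer cells of a type and less RNA per cell cannot be told apart.

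Several other glial genes were also lower. Cdh19, a cadherin of glia, was at 6.76 and 6.64 in Con-l and at 5.53 and 5.16 in CR-l, a difference of -1.36 (SE 0.13, adjusted p = 0.0513). Erbb3, a neuregulin receptor, differed by -0.89 (SE 0.09, adjusted p = 0.0535), and Padi2, which converts arginine to citrulline in myelin basic protein and other proteins, by -0.60 (SE 0.06, adjusted p = 0.0535). Gfap, the intermediate filament of astrocytes, was at 9.81 and 10.13 in Con-l and at 8.56 and 8.89 in CR-l, a difference of -1.24 (SE 0.17, adjusted p = 0.0613). The astrocyte list as a whole was mixed: 5 of 14 were higher and 9 lower, 2 and 5 of them at an unadjusted p under 0.05 (background 6.92% and 7.27%), with a median of -0.04. With 1 leptin array left out that median ran from -0.07 without Con-l replicate A to -0.01 without Con-l replicate B. Aqp4, the water channel of astrocyte endfeet, differed by -0.48 (SE 0.12), and Slc1a2, the main glutamate transporter, by 0.03 (SE 0.06). Grm3, a metabotropic glutamate receptor found on glia and neurons, differed by -0.65 (SE 0.08, adjusted p = 0.0605).

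Cholesterol, which myelin takes up in large amounts, is made in the brain from mevalonate. Of 18 genes of its synthesis and uptake, 17 were lower and 1, Hsd17b7, was higher (0.22, SE 0.07). At an unadjusted p under 0.05 there were 8 lower (background 7.27%), none passed, and the median difference was -0.16. Cyp51 was at 11.51 and 11.49 in Con-l and at 11.06 and 11.10 in CR-l, a difference of -0.43 (SE 0.07, adjusted p = 0.079). Msmo1 and Dhcr7, further enzymes late in the pathway, differed by -0.45 (SE 0.07) and -0.41 (SE 0.08), and the isomerase gene Ebp by -0.35 (SE 0.08). Srebf2, the transcription factor that switches the pathway on, differed by -0.25 (SE 0.06, adjusted p = 0.163). Its sterol motif TCACNCCAC was in 0 of 15 promoters of the list and in 1.09% of all promoters.

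Genes of the brain matrix were lower as well. All 10 measured genes on a list of perineuronal nets, the lattice around some mature neurons, and related matrix were lower. Of these, 7 were lower at an unadjusted p under 0.05 (background 7.27%), and the median was -0.21. The list also holds the neuronal genes Pvalb and Kcnc1, which do not encode matrix and are among the 7. Ncan, the proteoglycan neurocan, was at 9.79 and 10.04 in Con-l and at 9.36 and 9.58 in CR-l, a difference of -0.44 (SE 0.11, adjusted p = 0.159). Pvalb, the calcium buffer of fast-spiking neurons, differed by -0.43 (SE 0.10, adjusted p = 0.159). The proteoglycan gene Bcan and the potassium channel gene Kcnc1 differed by -0.21 (SE 0.07) and -0.15 (SE 0.06). Without Con-l replicate B the difference of Bcan was -0.13.

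Markers of meninges, the membranes that cover the brain, and of red blood cells were also lower in CR-l. Of 18 meningeal genes 17 were lower, 13 at an unadjusted p under 0.05 (background 7.27%), with a median of -0.36. Con-l replicate A was the highest array: the summed intensities were 5993 and 4699 in Con-l and 3464 and 3952 in CR-l, and without Con-l replicate A the median was -0.24. Ogn, a matrix proteoglycan, was at 10.20 and 9.60 in Con-l and at 8.46 and 8.70 in CR-l, a difference of -1.32 (SE 0.19, adjusted p = 0.0613). The retinaldehyde dehydrogenase gene Aldh1a2, the GABA transporter gene Slc6a13 and the collagen gene Col1a2 differed by -0.70 (SE 0.10), -0.63 (SE 0.12) and -0.37 (SE 0.07). Of 10 red cell genes 9 were lower, 7 at an unadjusted p under 0.05 against the same background, with a median of -0.71. Hbb-b1, a beta globin, was at 10.80 and 10.62 in Con-l and at 9.64 and 8.88 in CR-l, a difference of -1.45 (SE 0.25, adjusted p = 0.0866), although probe sets of globin copies may share signal. Alas2, the first enzyme of haem synthesis in red cell precursors, differed by -1.14 (SE 0.20), and Hemgn, a nuclear protein of blood-forming cells, by -0.56 (SE 0.08). The summed red cell intensities were 5105 and 4390 in Con-l and 2554 and 1675 in CR-l.

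Serpinh1, Ptgds and C1s are also expressed by meningeal cells, so the summed meningeal and red cell levels above belong beside their values. The part of meningeal or blood cell content in the differences of these genes, or of any list here, was not tested. Ptgds, which makes prostaglandin D and is secreted into the cerebrospinal fluid, was at 11.67 and 11.22 in Con-l and at 9.77 and 9.89 in CR-l. Its difference was -1.62 (SE 0.19, adjusted p = 0.0605), 3.08-fold. Alox15, a lipoxygenase that oxidises polyunsaturated fatty acids, was at 8.98 and 8.58 in Con-l and at 7.64 and 7.15 in CR-l, a difference of -1.38 (SE 0.20, adjusted p = 0.0613). Among the 14 genes of eicosanoid synthesis these 2 were the only ones lower at an unadjusted p under 0.05 (background 7.27%). Alox5 was the only 1 higher at that p (0.51, SE 0.17, background 6.92%). The list median was -0.08, and it ran from -0.17 without Con-l replicate B to -0.04 without CR-l replicate A when 1 leptin array was left out. C1s, a protease of the complement cascade, differed by -0.72 (SE 0.09, adjusted p = 0.0605). Vessel genes were mixed, with 8 of 19 higher and 11 lower and a median of -0.02, which was -0.10 without Con-l replicate B and 0.00 without Con-l replicate A. Tagln, of smooth muscle, differed by -0.48 (SE 0.06) and Rgs5, of pericytes, by -0.50 (SE 0.06), each with an adjusted p of 0.0605, and Acta2, the actin of smooth muscle, by -0.02 (SE 0.05).

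**Figure D3:**
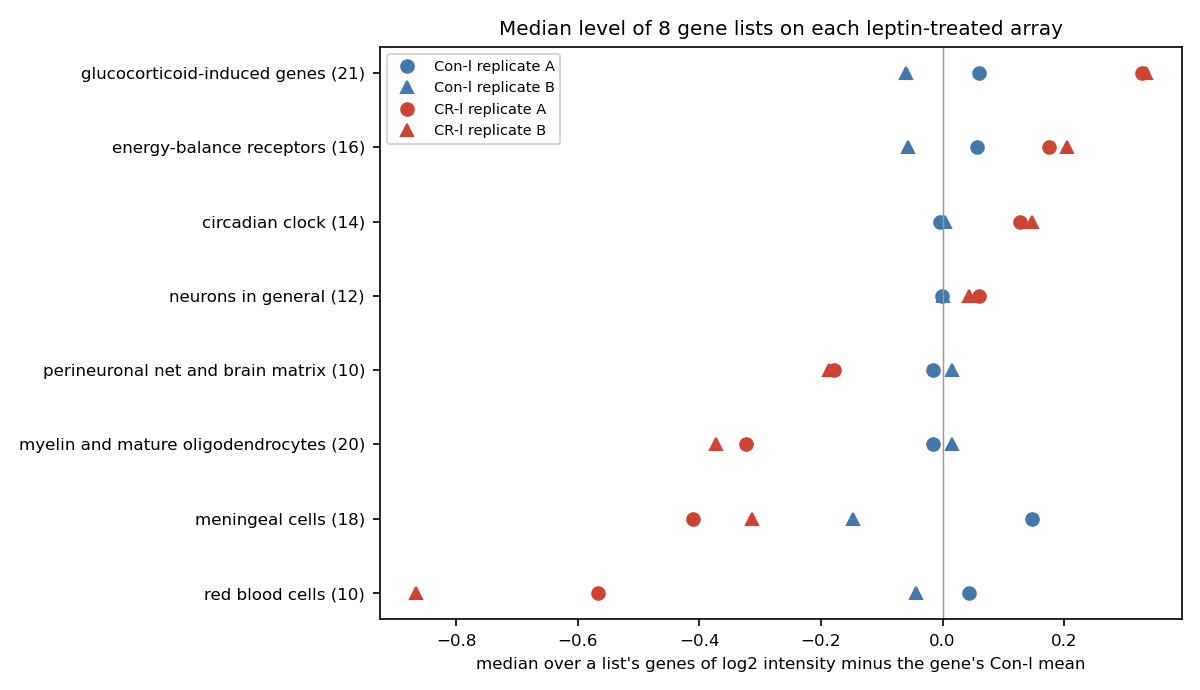
Median over the members of 8 gene lists of log2 intensity minus the gene's Con-l mean (horizontal axis), on each of the 4 leptin arrays. The CR-l arrays lie at 0.33 for glucocorticoid-induced genes, at -0.32 and -0.37 for myelin genes and at -0.57 and -0.87 for red blood cell genes, and the Con-l arrays lie on either side of 0 because their mean is the reference.

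Other single genes with large differences belonged to no list. Slc19a3, the thiamine transporter, was at 7.73 and 7.83 in Con-l and at 8.72 and 8.63 in CR-l, a difference of 0.90 (SE 0.13, adjusted p = 0.0614). F2rl2, a protease-activated receptor, differed by 0.91 (SE 0.14, adjusted p = 0.0792), and C8g, a complement component, by 0.62 (SE 0.08, adjusted p = 0.0613). Lrrcc1, a protein of the centrosome, differed by 0.71 (SE 0.10, adjusted p = 0.0613). The odorant receptor gene Or2k2 differed by 0.60 (SE 0.08, adjusted p = 0.0605). Another, Or5b104, differed by 0.70 (SE 0.07, adjusted p = 0.0535) at log2 levels of only 2.33 to 3.11. On the lower side, Abhd1, of the alpha/beta hydrolase family, differed by -0.67 (SE 0.07, adjusted p = 0.0557) and Cd82, a membrane tetraspanin, by -0.63 (SE 0.08, adjusted p = 0.0605).

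The same diets under saline share no array with this comparison, and their values are set beside it here. Under saline no gene passed (smallest adjusted p = 0.176), 1233 genes had an unadjusted p under 0.05, and the difference was 1.13 for Rbm3, -0.43 for Serpinh1 and -0.63 for Enpp2. Across the 14506 genes, which are not independent, the differences under leptin and saline correlated at 0.398. Single-array differences within the leptin groups (A against A, and B against B) correlated at 0.297, or 0.331 with the letters crossed. Of 46 genes chosen under saline at an unadjusted p under 0.05 and at least 1.5-fold, 40 had the same direction under leptin (87.0%). Their median difference was 0.72 in size where chosen and 0.68 under leptin. Of 95 genes chosen in the same way under leptin, 84 had the same direction under saline (88.4%), with medians of 0.68 where chosen and 0.44 under saline. The share of all 14506 genes with the same direction under both treatments was not counted, so neither percentage has a background to be read against. A gene chosen for its size in a comparison tends to be smaller in the next, so the drop in either direction is not a measure of leptin's effect.

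The difference between the restriction effects under leptin and saline was tested in the same fit. No gene passed (0% of 14506, limma, smallest adjusted p = 0.278), and 747 had an unadjusted p under 0.05 where chance gives about 725. For the 3 genes that passed under leptin, the leptin effect minus the saline effect was 0.54 (SE 0.20) for Rbm3, -0.37 (SE 0.09) for Serpinh1 and -0.28 (SE 0.11) for Enpp2, each with an adjusted p of 0.898. For Npy it was 0.55 (SE 0.19, adjusted p = 0.898), with saline levels of 9.50 and 9.27 in Con-s and 9.95 and 9.76 in CR-s. Agrp differed by 0.68 under leptin and 0.71 under saline, a gap of -0.03 (SE 0.18, 95% interval -0.45 to 0.40). Oxt differed by -0.21 under leptin and -0.55 under saline, a gap of 0.34 (SE 0.13, adjusted p = 0.898). The gap was 0.76 (SE 0.17) for Hif3a, 0.46 (SE 0.12) for Npy1r, 0.40 (SE 0.11) for Adcyap1, -0.77 (SE 0.19) for Cdh19 and -0.61 (SE 0.14) for Aldh1a2, a retinoic acid-making enzyme of the meninges, each with an adjusted p of 0.898.

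The genes with the smallest p in that test included several dim odorant receptor genes. Or5b104 had a gap of 1.03 (SE 0.10, adjusted p = 0.278), and the odorant receptor genes Or5p59, Or1o11, Or2v2c and Or5b124 had gaps of -0.61, -0.92, -0.87 and -0.60. Or5b124 differed by -0.32 under leptin, and a second probe set of it by 0.18. Kng2l1, with 0.67 (SE 0.14), had log2 levels between 3.58 and 3.76 on the leptin arrays. Eif3i, a translation initiation subunit, had a gap of 0.65 (SE 0.10), and Retsat, the retinol saturase, one of -0.89 (SE 0.17). Pvr, a cell adhesion receptor, had a gap of 1.03 (SE 0.18): it differed by -0.03 under leptin and by -1.05 under saline.

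By list, the median restriction effect had the same sign under both treatments in 34 of 45 lists and opposite signs in 11. The medians under leptin and saline were 0.33 and 0.23 for glucocorticoid-induced genes, -0.36 and -0.20 for myelin, -0.36 and -0.27 for meningeal genes, -0.71 and -0.80 for red cell genes and -0.21 and -0.16 for brain matrix. The cholesterol list had -0.16 under leptin and -0.31 under saline, and the energy-balance receptors had 0.20 and 0.01. Among the lists with opposite signs, the medians were -0.12 and 0.01 for immediate early genes, 0.08 and -0.0045 for hypothalamic transcription factors, 0.05 and -0.17 for thalamic markers and -0.06 and 0.15 for striatal markers. With 1 leptin array left out the leptin median ran from -0.20 to 0.24 for thalamic markers (without CR-l replicate A and without CR-l replicate B) and from -0.19 to 0.10 for striatal markers (without Con-l replicate B and without Con-l replicate A). All 20 myelin genes were lower by more under leptin than under saline, 2 of them at an unadjusted p under 0.05 (background 747 of 14506 genes). Of 18 cholesterol genes, 13 had a leptin difference above their saline difference, as did 52.5% of all genes. These are counts over genes of the same 8 arrays, and no test of a list was made.

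**Figure D4:**
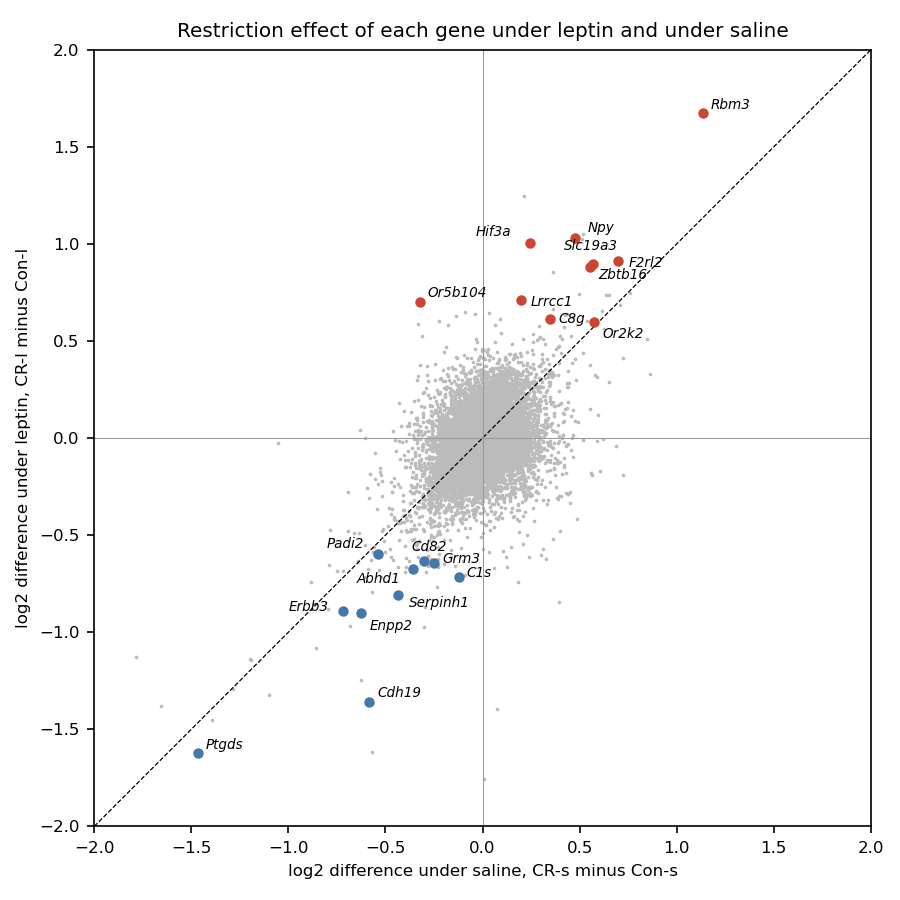
Each named gene by its log2 difference under saline (horizontal axis, CR-s minus Con-s) and under leptin (vertical axis, CR-l minus Con-l), with the dashed line marking equal differences. Labelled genes are the 10 highest-ranked in each direction under leptin; Rbm3 lies at 1.13 and 1.67, and Or5b104 is the only labelled gene with opposite signs (-0.32 and 0.70).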

How the data were processed

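The authors deposited linear intensities for each probe set, made with RMA in Affymetrix Expression Console per the submitters' processing notes; its version and the genome build are not given in the sources used here. From the deposited intensities log2 values were taken, with no further normalization or filter. Of 29215 probe sets, 15310 carried 1 symbol in the array annotation, updated through the Entrez number (15279) or accession (6), 25 keeping the old symbol; 13905 were left unnamed. The brightest probe set stood for each of 527 genes with several, which left 14506 genes.

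limma 3.58.1 in R 4.3.3 fitted 4 group means over the 8 arrays (4 residual and 3.21 prior degrees of freedom), with two-sided tests and Benjamini-Hochberg adjustment over all genes. The fit was tested on simulated data. An exact test of 2 arrays against 2 cannot go below p = 0.333 and was not used. Quantile, cyclic loess and median scaling, a filter, other spread models, other gene summaries and leaving out each array were tried as alternatives. The correlations of deviations between groups for the replicate letters were -0.0606 to 0.109, so no pairing by letter showed across all genes. They cannot exclude a pairing that touches only some genes, and the reported fit used none.

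The members and the 45 gene lists (625 of 711 entries measured) were chosen with earlier results of these data known. Genes were named by a rule: 16 energy-balance genes (15 measured), the passing genes filled to 10 per direction by unadjusted p at 1.5-fold or more, 5 per direction for the difference between leptin and saline, and up to 4 members of each list. Fkbp5, Sgk1, Lcn2, Mbp, Mog, Klk6, Srebf2, Hsd17b7, Calcr, Slc1a2, Acta2, Bmal1, Clock, Cga and Slc17a7 were chosen after their values were seen.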

Additional observations from a re-analysis of the deposited data

How the results depend on the processing

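The number of genes passing between CR-l and Con-l depended on the processing: 3 with the settings reported (1 higher, 2 lower), 24 with quantile normalization and 24 with cyclic loess (11 higher and 13 lower in each), 4 with median centring, 249 among the upper 60% of genes by mean, 469 with trend and robust settings and 10 with array weights. It was 135 at an adjusted p under 0.1, added after the data had been seen. It was 0 with all probe sets tested together (limma, smallest adjusted p = 0.176), 0 with the 4 leptin arrays alone (0.101) and 0 with a replicate block made of letters A and B (0.0665). In those 3 settings 1740, 1945 and 2100 genes had an unadjusted p under 0.05. Leaving out 1 array gave 0 to 3: 2 without Con-l replicate B, neither of them Rbm3, Serpinh1 or Enpp2, 3 without CR-l replicate A, of which 1 was Rbm3, and 0 without any of the other 6. For the difference between leptin and saline the count was 0 in the settings run, the block included, except for 1 gene without Con-l replicate B, so leaving out 1 array gave 0 to 1. At an unadjusted p under 0.05 the split of 1004 higher and 1055 lower became 1110 and 939 with median centring. The sign changed in at least 1 setting for 7 genes, among them Avp and Mc4r, which differed by 0.15 and 0.14 with the settings reported. Pmch was 0.00574 with median centring. Without 1 array the differences ranged from -0.00191 to 0.31 for Avp, -0.048 to 0.00780 for Crh, -0.084 to 0.18 for Hcrt, -0.063 to 0.057 for Pmch, -0.046 to 0.048 for Bdnf, -0.12 to 0.39 for Mc4r and -0.075 to 0.033 for Stat3. The cause of these changes was not tested, apart from the fewer genes or arrays that a setting uses by construction. Signal over background could not be judged, since no detection calls were used here.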

Other observations

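Genes of cell division and of the interferon response were lower on balance in CR-l. Of 17 cell cycle genes 15 were lower, 4 at an unadjusted p under 0.05 (background 7.27%), and 2 were higher, 1 at that p (background 6.92%). The median was -0.12 and the highest difference 0.51. Ccna2, a cyclin of DNA replication, differed by -0.53 (adjusted p = 0.0819), Top2a, the topoisomerase of dividing cells, by -0.63 (adjusted p = 0.155) and Rrm2, which makes deoxynucleotides, by -0.39 (adjusted p = 0.146). A second probe set of Rrm2 gave -0.41. Of 17 genes of the interferon response and antigen processing 15 were lower, 3 at an unadjusted p under 0.05 (background 7.27%). The other 2 were higher, 1 at that p (background 6.92%), and the median over the list was -0.14. That median was -0.03 without Con-l replicate A and -0.32 without Con-l replicate B. Psmb8, an immunoproteasome subunit, and B2m, the light chain of class I molecules, differed by -0.32 (adjusted p = 0.199) and -0.21 (adjusted p = 0.219). Ifit2, of the same list, was higher by 0.22 (adjusted p = 0.263). The immediate early genes, which neuronal activity induces, were lower in 11 of 14 cases, 3 at an unadjusted p under 0.05 (background 7.27%). Their median was -0.12, which was -0.05 without Con-l replicate A and -0.06 without CR-l replicate B.

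Growth factor and identity genes of the hypothalamus were more often higher. In the growth hormone and IGF list 11 of 15 were higher, 4 at an unadjusted p under 0.05 (background 6.92%), and 4 were lower, 2 at that p (background 7.27%). The lowest difference in that list was -0.59, and the median was 0.06, with 0.10 without CR-l replicate A and also without either Con-l array. Igfbp3, a binding protein of insulin-like growth factors, differed by 0.46 (adjusted p = 0.0617), Igf1r, their receptor, by 0.25 (adjusted p = 0.143), Ghr, the growth hormone receptor, by 0.28 (adjusted p = 0.182) and Igfbp2 by -0.40 (adjusted p = 0.158). Transcription factors of hypothalamic neurons were higher in 15 of 17 cases, where 50.5% of all genes were higher. At an unadjusted p under 0.05 there were 3 higher (background 6.92%). Their median was 0.08, and 0.15 without Con-l replicate A. Sim1, needed for paraventricular neurons, differed by 0.23 (adjusted p = 0.192). Genes of monoamine signalling were higher in 14 of 18 cases, where 50.5% of all genes were higher. At an unadjusted p under 0.05 only 1 was higher and 1 lower (background 6.92% and 7.27%). Their median was 0.13, and 0.07 without Con-l replicate B. The serotonin receptor gene Htr2a differed by 0.43 (adjusted p = 0.146), and Slc6a2 and Maob, of the same list, by -0.17 and -0.21. Among genes of fatty acid and ketone use, Ppargc1a, a coactivator of mitochondrial genes, differed by 0.32 (adjusted p = 0.124) and Scd, a desaturase, by -0.68 (adjusted p = 0.135). P4ha1, a prolyl hydroxylase of collagen, differed by -0.53 (adjusted p = 0.0605), and Kcnj13, a potassium channel of the choroid plexus, by -1.14 (adjusted p = 0.0981). Ttr, the main secreted protein of the choroid plexus, differed by 0.31 (adjusted p = 0.538).

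Bmp4, a bone morphogenetic protein on the list of oligodendrocyte precursors, was at 8.40 and 8.86 in Con-l and at 5.82 and 8.20 in CR-l, with the CR-l arrays far apart and a group difference of -1.61 (adjusted p = 0.346). Of the 13905 probe sets left unnamed, 1274 had an unadjusted p under 0.05 (9.16%) and 0 passed (limma over all probe sets).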
